A study of Rattus norvegicus with 8 samples.

Results

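The transcripts described here are those of 9 enzymes of cholesterol synthesis, namely Hmgcs1, Idi1, Fdps, Fdft1, Sqle, Lss, Cyp51, Hsd17b7 and Dhcr7. Their probe sets were taken as all those whose only gene symbol in the array's annotation is 1 of these names. This gave 21 of the 8799 probe sets on the array, for 8 of the 9 genes; Hmgcs1 had no probe set with its symbol alone and was not analysed here. The samples are 8 RNA preparations from the rat line Htt14A2.5, a derivative of PC12, which comes from a tumour of the adrenal medulla. All 8 carry a stable, inducible construct for exon 1 of human huntingtin in a truncated, mutant form. By their titles 4 samples received ponasterone (induced) and 4 did not (uninduced), and the descriptions give 48 h of induction. The descriptions of the uninduced samples name the induction too, so the titles alone set the groups. With 1 transgenic line and these 2 groups, the effects of the steroid, of the construct and of this line cannot be told apart. The labels do not say whether the line is 1 clone, what the uninduced samples received in place of ponasterone, or whether the 4 samples of a group were separate cultures. The p-values therefore measure only the spread between these samples, which may be technical.

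Cholesterol is built from acetyl-CoA through mevalonate and isoprenoid diphosphates to squalene, which is closed into lanosterol and then trimmed and reduced. The genes of this route are known targets of the SREBP transcription factors, which are released when membrane sterols fall, and they commonly rise and fall together. Neurons and neuron-like cells make their own sterols for membranes and vesicles.

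Each sample was read on 1 array as a scaled signal, and the median signal of an array lay between 97.5 and 134.9. On every array 38 control probe sets for foreign or reverse-strand sequence gave a reference for low signal, with a 95th percentile of 102 to 183. Of the chromaffin and PC12 markers, the granule protein Chgb (signals of 9331 to 13494 over the 8 arrays) and the neurotrophin receptor Ngfr (2459 to 4237) were above this reference on every array. This Ngfr probe set rose after induction (log2 difference 0.45 ± 0.11, limma adjusted p = 0.0267), while its other one differed by -0.33 ± 0.16 and did not pass (adjusted p = 0.319). Slc18a1, Th, Gal, Slc18a2, Ddc and Dbh were not, and Th, which makes the catecholamine precursor, read 52.3 ± 28.3 in induced and 69.98 ± 62.9 in uninduced samples (SD, n = 4 each). The sum over the 8 chromaffin genes with a probe set was 15476 to 17559 in induced and 12924 to 16596 in uninduced samples. None of the 5 adrenal cortex, 2 glial and 4 hepatocyte markers with a probe set was above the reference on all arrays, and 2 of 6 fibroblast markers (Col3a1 and Col1a1) were. Of the 4 Col1a1 probe sets 2 rose, by 0.71 ± 0.17 and 1.05 ± 0.26 (limma adjusted p = 0.0244 and 0.0300), and the others, among them the brightest, differed by 0.70 and 0.13 and did not pass. The sum over the 6 fibroblast genes was 1552 to 1921 in induced and 1407 to 1784 in uninduced samples. No marker was at 0, and the part of other cells in the results was not tested.

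Among the enzymes the only transcript that passed the test was Dhcr7, which was lower in induced cells. A filter on low signal kept 20 of the 21 probe sets of the enzymes. In limma's test over 6129 probe sets, adjusted by the Benjamini-Hochberg method with a threshold of 0.05, 1 of these 20 was lower and 0 were higher. Over all probe sets 7.06% passed, 4.1% higher and 2.97% lower, and with 1 call the enzymes' share cannot be set apart from these. At an unadjusted p under 0.05 there were 5 lower and 1 higher among the 20, where the array had 9.28% lower and 8.75% higher. These 5 include both Dhcr7 probe sets. By the brightest probe set of each of the 8 genes there were 2 lower and 1 higher. Of all 3623 tested genes 352 were lower and 328 higher, and counts this small cannot be set apart from these. The log2 difference, induced minus uninduced, was below 0 for 14 of the 20, against 56.6% of all tested probe sets. Its median over the 8 genes (the brightest probe set of each) was -0.16, beside -0.05 over all 3623 genes tested. Without uninduced replicate 1 the enzymes' median was -0.090, and without uninduced replicate 2 it was -0.25. Centring the arrays on their medians left 229 calls on the array, 166 higher and 63 lower, against 251 higher and 182 lower as deposited, and 0 calls among the enzymes.

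**Figure D1:**
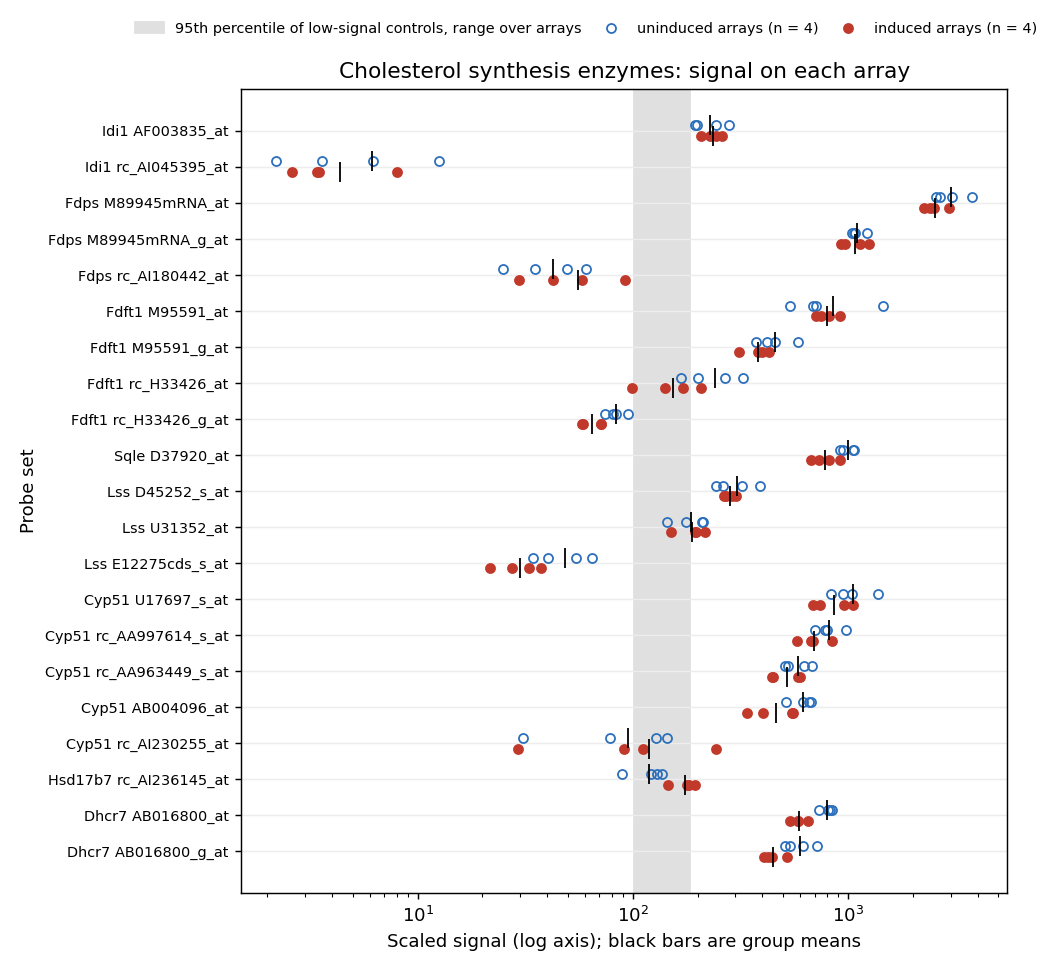
Scaled signal (log axis) of the 21 probe sets of 8 cholesterol synthesis enzymes on each of 4 induced (filled) and 4 uninduced (open) arrays, with group means as black bars and the range of the low-signal reference (102 to 183) in grey. The groups are apart for Dhcr7 AB016800_at, Sqle D37920_at, Fdft1 rc_H33426_g_at and, in the other direction, Hsd17b7 rc_AI236145_at; the second Idi1 probe set lies far below the reference.

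Dhcr7 encodes the reductase of the last step to cholesterol in one branch of the route. Its probe set AB016800_at read 582.9, 538.4, 585.7 and 654.2 in induced replicates 1 to 4, and 839.6, 821.8, 806.2 and 736.6 in uninduced replicates 1 to 4. All 4 induced arrays lay below all 4 uninduced arrays, with the closest values in replicate 4 of each group. The means were 590.3 ± 47.8 and 801 ± 45.1 (SD, n = 4 each), a log2 difference of -0.44 ± 0.11 (SE; 95% interval -0.67 to -0.20; limma adjusted p = 0.0295), which is 1.35-fold lower. Folds here come from log2 values after a constant of 7 was added to each signal.

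The second Dhcr7 probe set, AB016800_g_at, has the same source sequence in its name. It read 423.3, 441.3, 520.7 and 405.3 in induced and 719.3, 510.5, 616.4 and 535.9 in uninduced replicates 1 to 4. The groups overlapped only through induced replicate 3, which lay above uninduced replicate 2. The log2 difference was -0.40 ± 0.14 (SE; 95% interval -0.71 to -0.09), close to that of the first probe set, and did not pass (limma adjusted p = 0.141). With both probe sets averaged the difference was -0.42 ± 0.11 (adjusted p = 0.0367 over 4699 genes and unnamed probe sets).

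The Dhcr7 call was near the threshold, and it held in 2 of the 8 fits that left out 1 array. In these fits the count of called probe sets over the array also fell, from 433 to between 313 and 408. The adjusted p was 0.0729, 0.0942 and 0.0654 without induced replicate 1, 2 or 3, and 0.0837, 0.0956 and 0.0822 without uninduced replicate 1, 2 or 3. It was 0.0226 without induced replicate 4 and 0.0318 without uninduced replicate 4, the arrays with the closest values. The log2 difference itself stayed between -0.49 and -0.40 in these 8 fits. Median centring ended the call (adjusted p = 0.191), as did a variance model with no intensity trend (0.0661) and a block for the replicate numbers (0.0941). A fit without either replicate 2 also ended it (0.230), and there the count over the array fell from 433 to 221. Both of these samples carry another wording in their source label, and whether that matters was not tested.

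**Figure D2:**
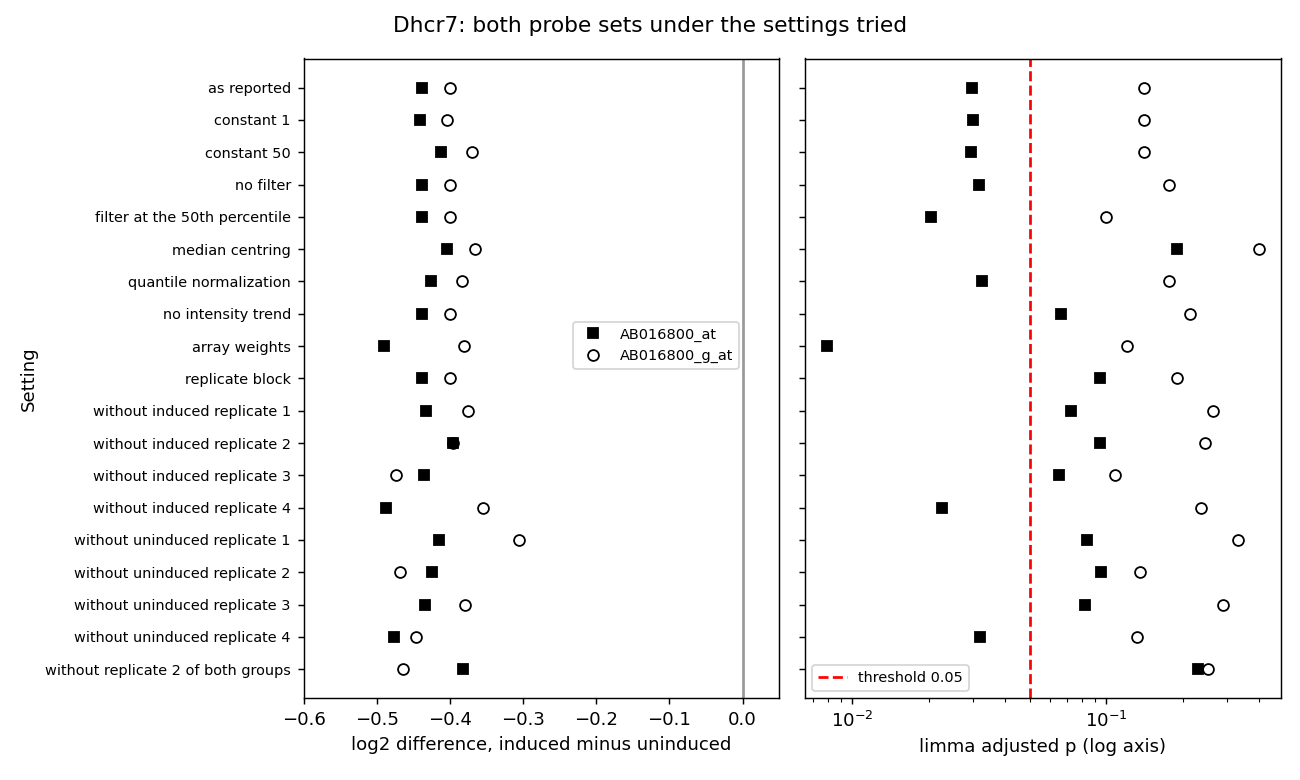
Log2 difference (left, induced minus uninduced) and limma adjusted p (right, log axis) of the 2 Dhcr7 probe sets under each setting tried, with the threshold of 0.05 as a dashed line. Both differences stay below 0 in all settings shown, while the adjusted p of AB016800_at lies between 0.0079 and 0.230 and that of AB016800_g_at is highest with median centring, at 0.399.

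Among the early, isoprenoid-making enzymes no difference passed. Idi1 interconverts the 2 isoprene building blocks. Its probe set AF003835_at read 243.8, 206.6, 260.9 and 228.3 in induced and 197.7, 244.1, 193.8 and 281.2 in uninduced replicates 1 to 4. The induced values lay within the uninduced range, with a log2 difference of 0.05 ± 0.18 (SE; 95% interval -0.34 to 0.43; adjusted p = 0.943). The other Idi1 probe set, rc_AI045395_at, read 2.2 to 12.6 on the 8 arrays, far under the low-signal reference, and was not tested.

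Fdps makes farnesyl diphosphate, from which sterols, prenyl anchors and other isoprenoids branch. Its probe set M89945mRNA_at read 2416, 2260, 2955 and 2500 in induced and 3782, 2558, 2686 and 3047 in uninduced replicates 1 to 4. The highest value was that of uninduced replicate 1, and 3 of the 4 induced arrays were below every uninduced array. The log2 difference was -0.24 ± 0.13 (SE; 95% interval -0.53 to 0.04; adjusted p = 0.372). The companion M89945mRNA_g_at differed by -0.05 ± 0.12 (adjusted p = 0.910), with means of 1072 ± 150 induced and 1102 ± 83.0 uninduced (SD, n = 4 each). The third, rc_AI180442_at, was under the reference on all 8 arrays. Over 8 arrays the first and second Fdps probe sets had a Pearson correlation of -0.38 (Spearman -0.48), so they did not rank the arrays alike.

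The first steps committed to sterols are those of Fdft1, which joins 2 farnesyl groups into squalene, and Sqle, the squalene epoxidase, a known control point of the route. Sqle D37920_at read 818.3, 731.3, 916.3 and 669.5 in induced and 918.9, 1071, 952.5 and 1055 in uninduced replicates 1 to 4. The groups did not overlap, although induced replicate 3 and uninduced replicate 1 were nearly equal. The means were 783.9 ± 107 and 999.5 ± 75.2 (SD, n = 4 each), and the log2 difference of -0.35 ± 0.12 (SE; 95% interval -0.62 to -0.09) did not pass (limma adjusted p = 0.119). The 18 other fits gave adjusted p-values from 0.0626 to 0.464, and a difference between -0.43 and -0.28. An exact two-sided permutation test of this single probe set gave p = 0.0286, the smallest that 4 against 4 arrays allow, unadjusted. That value follows from the lack of overlap alone, which 13.6% of all tested probe sets showed, and adds no further support.

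Fdft1 had 4 probe sets, and these disagreed. M95591_at read 712.2, 748.9, 914.9 and 817.8 in induced and 684.9, 713, 536.3 and 1459 in uninduced replicates 1 to 4. The value of uninduced replicate 4 was the highest by far, and the log2 difference was 0.01 ± 0.24 with it (SE; adjusted p = 0.988) and 0.31 without it (adjusted p = 0.270). M95591_g_at, with the same source sequence in its name, read 396.9, 427.3, 312.8 and 382.1 in induced and 582.7, 419.3, 458.5 and 375.4 in uninduced replicates. Here uninduced replicate 4 was the lowest of its group, and the difference was -0.26 ± 0.16 (adjusted p = 0.456). The 2 probe sets of the other source sequence differed by -0.62 ± 0.26 (rc_H33426_at, adjusted p = 0.242) and -0.33 ± 0.26 (rc_H33426_g_at, adjusted p = 0.582). The groups of the last one did not overlap, with 58.2 to 71.2 induced and 74.1 to 94.5 uninduced, but all these signals were under the low-signal reference.

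Lss closes squalene epoxide into lanosterol, the first ring sterol. Its probe set D45252_s_at read 271.3, 300.4, 289.6 and 265.8 in induced and 391.1, 243.7, 321 and 262.2 in uninduced replicates 1 to 4, so the induced values lay inside the uninduced range. The log2 difference was -0.09 ± 0.17 (SE; 95% interval -0.46 to 0.29; adjusted p = 0.872). U31352_at differed by 0.03 ± 0.20 (adjusted p = 0.967), and E12275cds_s_at, under the reference on all 8 arrays, by -0.58 ± 0.39 (adjusted p = 0.496).

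Cyp51, the demethylase that acts on lanosterol, had 5 probe sets. U17697_s_at read 1055, 953.9, 686 and 742.6 in induced and 837.1, 945.4, 1381 and 1043 in uninduced replicates 1 to 4. The groups overlapped, with uninduced replicate 3 the highest, and the log2 difference was -0.29 ± 0.17 (SE; 95% interval -0.67 to 0.10; adjusted p = 0.440). AB004096_at read 552, 401.3, 338.9 and 553.5 in induced and 617.3, 658.2, 516.7 and 675 in uninduced replicates. Only uninduced replicate 3 came down into the induced range, and the difference was -0.44 ± 0.17 (95% interval -0.81 to -0.06; adjusted p = 0.195). This is the same size as that of Dhcr7 AB016800_at, with a larger standard error. The further probe sets above the reference, rc_AA997614_s_at and rc_AA963449_s_at, differed by -0.23 ± 0.14 and -0.17 ± 0.15 (adjusted p = 0.448 and 0.631). The fifth, rc_AI230255_at, ranged from 29.3 to 243.3 within the induced group and is listed with a difference of 0.17 ± 0.57 (adjusted p = 0.931). Averaged over its 5 probe sets, Cyp51 differed by -0.19 ± 0.14 (95% interval -0.50 to 0.12; adjusted p = 0.550). This average gives equal weight to rc_AI230255_at, which was above the reference on 3 of the 8 arrays. It was the 1 probe set of Cyp51 with a difference above 0, and the 4 others were below 0.

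Hsd17b7 reduces the keto group left when lanosterol's extra methyl groups are removed, and it was the 1 enzyme whose groups were apart with the induced arrays higher. Its probe set rc_AI236145_at read 145.1, 194.4, 182.3 and 179.3 in induced and 136.2, 121.7, 89.3 and 130 in uninduced replicates 1 to 4. Induced replicate 1 and uninduced replicate 1 were the closest pair. Of the 8 values 4 were above the low-signal reference of their array, and these were the induced ones. Every uninduced value was under it, so the size of this difference rests on signals near the reference. The means were 175.3 ± 21.1 and 119.3 ± 20.9 (SD, n = 4 each), a log2 difference of 0.54 ± 0.21 (SE; 95% interval 0.08 to 1.00) that did not pass (limma adjusted p = 0.190). The adjusted p was 0.118 to 0.495 in the 18 other fits. The exact permutation test of this single probe set gave p = 0.0286, unadjusted, which again only restates the lack of overlap. Across the 20 tested probe sets the groups did not overlap in 3 with induced lower and 1 with induced higher, beside 7.11% and 6.48% of all tested probe sets.

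**Figure D3:**
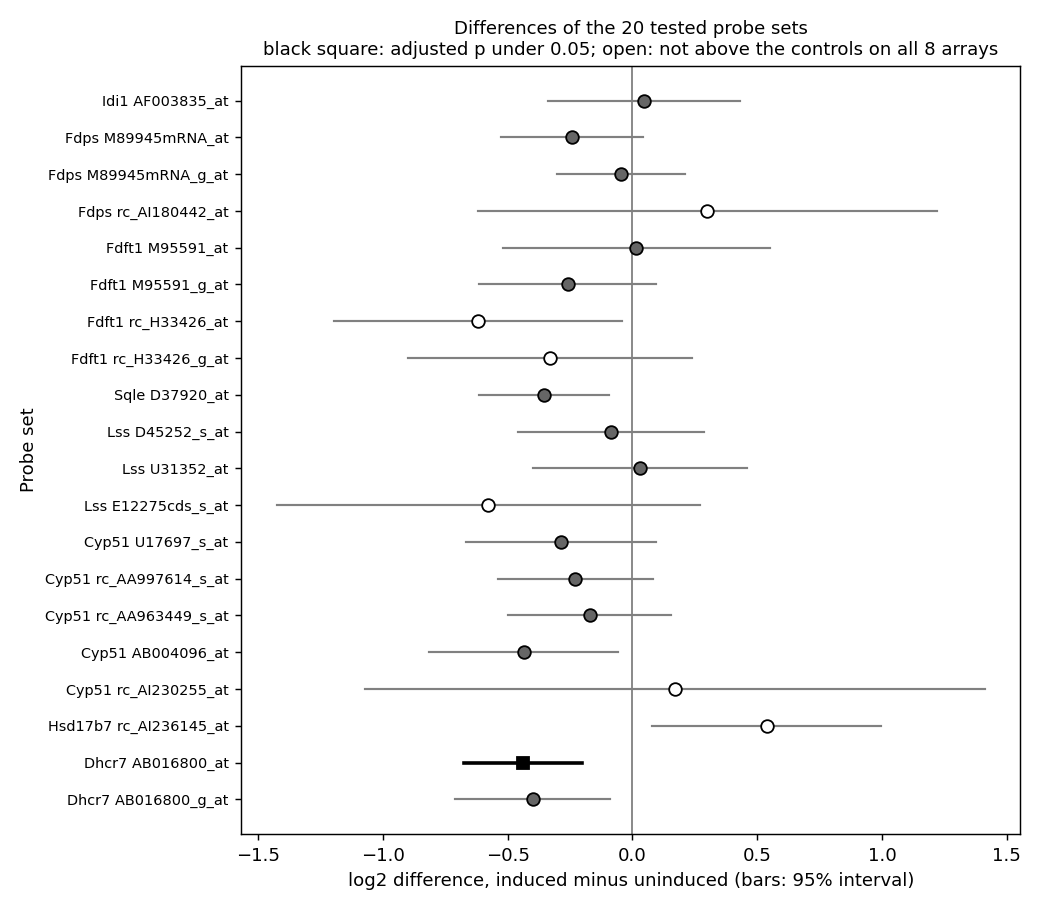
Log2 difference, induced minus uninduced, with its 95% interval for each of the 20 tested probe sets, in the order of the enzymes along the route. The black square is the 1 probe set past the threshold (Dhcr7 AB016800_at, -0.44), open circles are probe sets not above the low-signal reference on all 8 arrays, and the 14 filled symbols range from -0.44 to 0.05.

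The signals of the enzymes showed no common course over the 8 arrays. Among the 28 pairs of the 8 genes (brightest probe set of each), 14 had a positive Pearson correlation over the arrays, with values from -0.78 to 0.81. The highest was that of Idi1 with Fdft1 (0.81, Spearman 0.81), and among the lowest were those of Hsd17b7 with Cyp51 (-0.78, Spearman -0.52) and with Dhcr7 (-0.78, Spearman -0.76). After the group means were removed, 13 of the 28 were positive, Idi1 with Fdft1 stood at 0.82 and Hsd17b7 with Dhcr7 at -0.11. Probe sets of the same gene also agreed little, so these values cannot show whether the transcripts themselves varied together. Their 23 pairs had a median of 0.20 and ranged from -0.58 to 0.83, with the 2 Dhcr7 probe sets at 0.74 (Spearman 0.67). All these values rest on 8 arrays that share their scaling, and correlations of single genes with the median signal of the arrays ranged from -0.56 to 0.54.

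The mean profile of the 8 genes, each standardised over the arrays, was lowest in induced replicate 4 (-0.40) and induced replicate 2 (-0.39) and highest in uninduced replicate 4 (0.64). Induced replicate 3 (0.09) lay above uninduced replicates 2 and 3 (0.01 and -0.09), so the groups overlapped. Of 5033 other probe sets with a single symbol, those most like this profile were Ankra2 rc_AI104389_g_at (Pearson 0.97, Spearman 0.90), Ndufaf3 U95161_s_at (0.96, 0.95), Thy1 X02002_at (0.95, 0.86), Exoc2 AF032666_at (0.94, 0.95) and Timm10b rc_AA891857_g_at (0.94, 0.90). Without the 2 arrays farthest from the profile's median, the Pearson values were 0.91, 0.90, 0.79, 0.91 and 0.70 in turn. None of the 5 differed between the groups past the threshold (limma adjusted p from 0.245 to 0.484). These are the extremes of many comparisons over 8 arrays and are given as a description.

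The promoters of Dhcr7 and Hsd17b7 are shown because these enzymes act within the late part of the route and their groups were apart in opposite directions. The letters are from RefSeq (GRCr8, 5′ to 3′, ending just before the start site for Dhcr7), with the GC box GGGCGG and the CCAAT box CCAAT in capitals on either strand (as CCGCCC and ATTGG on the opposite one). The Dhcr7 window is chr1:208444184-208444433 on the plus strand. The Hsd17b7 window is chr13:84722811-84723004 on the minus strand, without 56 bases next to the start that lie within the annotated gene span.
Dhcr7: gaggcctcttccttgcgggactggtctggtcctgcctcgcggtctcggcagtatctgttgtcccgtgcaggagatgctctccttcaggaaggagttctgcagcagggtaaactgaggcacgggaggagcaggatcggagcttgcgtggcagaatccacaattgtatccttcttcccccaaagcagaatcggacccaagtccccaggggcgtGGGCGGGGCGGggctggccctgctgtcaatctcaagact
Hsd17b7: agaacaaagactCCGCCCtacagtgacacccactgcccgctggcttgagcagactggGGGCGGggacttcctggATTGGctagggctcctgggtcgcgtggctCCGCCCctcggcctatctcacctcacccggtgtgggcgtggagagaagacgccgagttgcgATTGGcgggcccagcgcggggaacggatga
The Dhcr7 promoter held 2 GC boxes that share 1 base, 39 to 29 bases before the start, and no CCAAT box. The 250 bases before the start of Hsd17b7 held 3 GC boxes and 3 CCAAT boxes, of which the CCAAT box nearest the start is in the part not printed. Of the 7 enzymes with a promoter in the table (Hmgcs1 among them), 5 held a CCAAT box and 6 a GC box within 250 bases, where 34.0% and 30.5% of all 33469 promoters did. A sterol regulatory element written as TCACNCCAC was found in 0 of the 7, and in 0.974% of all promoters. A match to these letters is a description of the sequence, and no match says only that these letters are not in this window.

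The other measured genes of cholesterol synthesis did not pass either. Of 12 further enzymes on the list 6 had a probe set. By the brightest probe set of each, limma called 0 of the 6 in either direction. At an unadjusted p under 0.05 there were also 0, and the median log2 difference was -0.10. Acat2, which makes acetoacetyl-CoA at the start of the route, differed by -0.11 ± 0.13 (adjusted p = 0.747) with its brightest probe set. Its second one read 1075 ± 181 induced and 1397 ± 88.9 uninduced (SD, n = 4 each), with no overlap. The difference of -0.39 ± 0.13 had a limma unadjusted p of 0.00914 and did not pass (adjusted p = 0.0976). Of all tested probe sets 9.28% were lower at an unadjusted p under 0.05, and 7.11% had no overlap with induced lower. Ebp, a sterol isomerase, differed by -0.13 ± 0.16 (adjusted p = 0.760). Of the 14 measured enzymes of the route in all (brightest probe set of each), 1 was called lower (Dhcr7), 0 higher and 13 were not called. Over all 3623 tested genes 2.9% were called lower and 4.31% higher. With 1 call the share of the 14 cannot be set apart from these.

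Regulators of the route had 5 measured genes, 0 of them called in either direction by limma and 0 at an unadjusted p under 0.05. The SREBP precursor gene Srebf1 read 634.4 ± 76.5 induced and 662.6 ± 115 uninduced (SD, n = 4 each), a log2 difference of -0.05 ± 0.15 (adjusted p = 0.920). Insig1, an anchor that holds SREBP in the endoplasmic reticulum and is itself a sterol-regulated gene, differed by -0.07 ± 0.12 and, with its second probe set, by -0.26 ± 0.13 (adjusted p = 0.839 and 0.326). These 2 genes were named after their values were seen. The oxysterol receptors Nr1h2 and Nr1h3 differed by -0.23 ± 0.13 and 0.34 ± 0.19 (adjusted p = 0.388 and 0.392). The groups of Nr1h3 did not overlap, as with 239 of all 3623 tested genes in the same direction.

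Sterol uptake, transport and esterification genes had 9 measured members, with 0 called by limma and 1 at an unadjusted p under 0.05. That one was Soat1, which esterifies cholesterol for storage, with 370.5 ± 26.3 induced and 287.95 ± 11.9 uninduced (SD, n = 4 each) and no overlap, a log2 difference of 0.35 ± 0.13 (limma adjusted p = 0.159). Of all 3623 tested genes, 328 were higher and 352 lower at an unadjusted p under 0.05, and 239 had no overlap with induced higher. Counts of 0 or 1 in lists this small cannot be set apart from these. Apoe, a sterol carrier, differed by -0.45 ± 0.24 (adjusted p = 0.357). Enzymes that use farnesyl and related groups for protein prenylation had 0 of 5 called, also 0 at an unadjusted p under 0.05. Fnta, a subunit of the protein farnesyltransferase, differed by 0.21 ± 0.11 and Rabggtb, of the Rab prenyl transferase, by -0.13 ± 0.11 (limma adjusted p = 0.328 and 0.645). Of the steroid and bile acid enzymes only Cyp21a1 and Cyp27a1 passed the low-signal filter, at mean signals of 74.7 to 103.5, and neither was called.

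**Figure D4:**
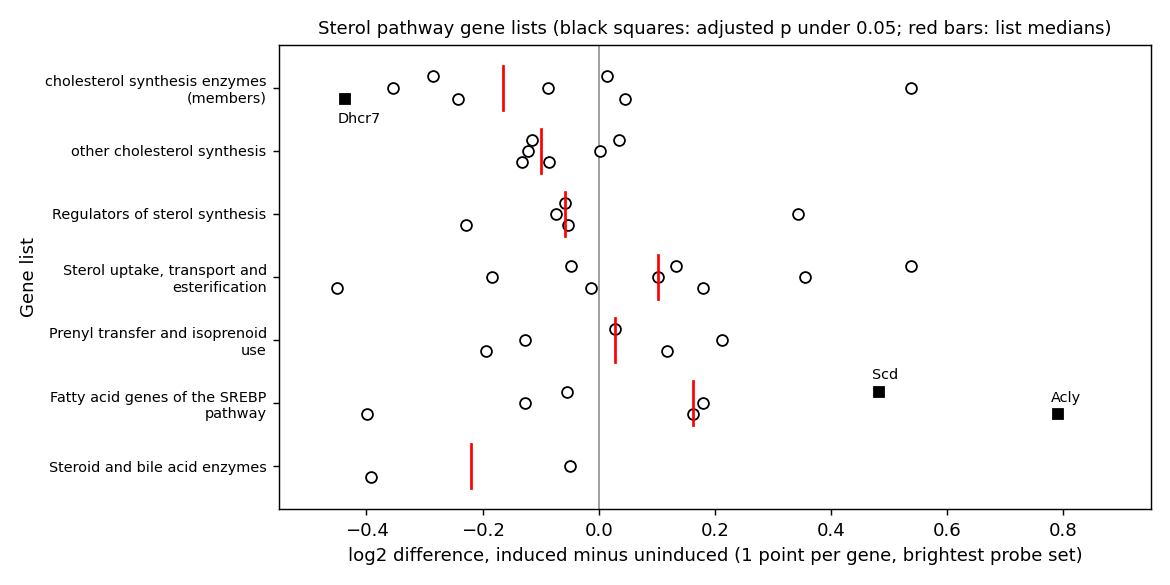
Log2 difference, induced minus uninduced, of each measured gene (brightest probe set) in the enzyme group and 6 related gene lists, with list medians as red bars and called genes as black squares. The medians run from -0.22 (steroid and bile acid enzymes, 2 genes) to 0.16 (fatty acid genes), and the called genes are Dhcr7 (lower) and Acly and Scd (higher).

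The fatty acid genes that SREBP factors also control had 2 of 7 members higher and 0 lower, where 4.31% of all 3623 tested genes were higher and 2.9% lower. Acly, which makes the cytosolic acetyl-CoA that both fatty acids and sterols are built from, rose with all 3 of its tested probe sets. The largest of these differences was that of J05210_at, from 2292 ± 185 to 4604 ± 98.7 (SD, n = 4 each; log2 difference 1.01 ± 0.08, limma adjusted p = 1.8e-05). Its call held in all 18 other fits. Scd, a fatty acid desaturase, rose by 0.48 ± 0.11 (adjusted p = 0.0231). That call was lost without induced replicate 1 or 2 (adjusted p = 0.0742 and 0.0685), without uninduced replicate 2, 3 or 4 (0.0641, 0.0641 and 0.0546), without replicate 2 of both groups (0.161) with median centring (0.176) and with no intensity trend (0.0734). Fasn, the fatty acid synthase, differed by -0.13 ± 0.13 and -0.21 ± 0.11 (adjusted p = 0.692 and 0.375), values named after they were seen. In RNA from whole cultures, fewer cells of a kind and less RNA per cell cannot be told apart.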

How the data were processed

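The deposited values are intensities, 1 scaled linear signal per probe set and array; the nearly equal trimmed means of the 8 arrays (500.8 to 500.9) show that the authors scaled them. The program for this is not given in the sources used here. Gene names come from the array's annotation table, and all 21 probe sets of the enzymes kept their symbol in the RefSeq gene list (GRCr8). A constant of 7 (the 10th percentile of all signals) was added before log2. The 59 controls and 2611 probe sets with a mean under 36.0 (30th percentile) were left out, and the other 6129 went into limma (version 3.58.1, R 4.3.3; lmFit, eBayes with an intensity trend; 6 residual and 5.77 prior degrees of freedom) and Benjamini-Hochberg adjustment. The script was tested on simulated data. The number of arrays limits the precision. The enzymes, gene lists and tests were chosen with earlier results of these data known. Named were all probe sets of the enzymes, the called genes or otherwise the 2 with the lowest p of each list, and the 5 probe sets most like the mean profile. Alternatives changed the constant, the filter, the scaling, the variance model, array weights, the replicate block and the arrays included.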

Additional observations from a re-analysis of the deposited data

How the results depend on the processing

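With 4 arrays a group and no detection calls, small differences and signals near the controls cannot be resolved. The count of called probe sets of the enzymes was 1 and became 0 with median centring, with no intensity trend, with the replicate block and without replicate 2 of both groups; it ran from 0 to 1 in the fits that left out 1 array, and was 1 in the other settings, among them averaged probe sets (1 gene). The count over the array was 433, and 229, 279 and 221 with median centring, no intensity trend and without replicate 2 of both groups. The fatty acid list went from 2 called genes to 1 in these same 3 settings, and ran from 1 to 2 without 1 array. The median difference of the enzymes, -0.16, ran from -0.25 (without uninduced replicate 2) to -0.090 (without uninduced replicate 1).

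Differences that were not called and changed sign were those of Fdps M89945mRNA_g_at (0.017 with array weights, -0.12 to 0.019 without 1 array), Cyp51 rc_AI230255_at (-0.26 with array weights, -0.26 to 0.67 without 1 array), Fdft1 M95591_at (-0.0035 without replicate 2 of both groups, -0.17 to 0.31 without 1 array), Lss U31352_at (-0.095 and -0.079 to 0.13, likewise), Idi1 AF003835_at (-0.027 to 0.15 without 1 array) and Lss D45252_s_at (-0.18 to 0.039). The cause was not tested for any of these.

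The titles number both groups 1 to 4. Deviations of same-numbered arrays from their group means correlated at -0.144, 0.0584, -0.0853 and 0.191. Pairs with different numbers ran from -0.207 to 0.202. These few values show no clear pairing, and they cannot exclude that same-numbered samples were handled together. With the replicate block 367 probe sets were called on the array, and the adjusted p of Dhcr7 AB016800_at was 0.0941, not past the threshold.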
